A study of Homo sapiens with 12 samples.

Results

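The small nuclear RNAs (snRNAs) RNU4-1, RNU4-2, RNU5A-1, RNU5B-1, RNU11, RNU12, RNU4ATAC, RNU6ATAC and RNU7-1 were described in RNA that was pulled down from K562 cells by an antibody against Argonaute 2 (AGO), the protein that loads microRNAs, or by control immunoglobulin (IgG), which gives the mock precipitate. These 9 genes were chosen by name from 61782 rows, because snRNAs had high values in the mock precipitates. The values in the mock precipitates, the shares built on them and every ratio of AGO over IgG are therefore a description. Of the 9 genes 8 stood alone in their row, and RNU7-1 shared its row with C12orf57. In at least 1 group 7 members were listed above 0, whereas RNU5A-1 and RNU5B-1 were listed at 0 throughout.

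K562 is a human erythroleukemia cell line. The cells, described in the methods as K562-C/EBPα-ER, carried either pLV-miR-143, a lentiviral vector for miR-143, or pLV-control, and were kept under puromycin selection in both cases. The 12 samples form 4 groups of 3, namely IgG and AGO precipitates of control cells and of miR-143 cells. The labels give no further treatment, and a stably selected pool of 1 cell line limits the model. For each group the authors deposited 1 average value per row in FPKM, which divides the fragments of a row by transcript length and by the mapped fragments of the library. Error and significance could therefore not be estimated, and differences are ratios of single averages.

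The spliceosome removes introns from pre-mRNA and is built from snRNAs that are bound by proteins. In the major spliceosome U1 recognises the 5′ splice site, U2 the branch point, U4 holds U6 inactive by base pairing, and U5 aligns the exons. A minor spliceosome handles a rare class of introns with U11, U12, U4atac and U6atac in place of U1, U2, U4 and U6, and shares U5 with the major one. Apart from U6 and U6atac, which end in a run of U and bind a ring of LSm proteins, these RNAs carry a short U-rich Sm site for a ring of Sm proteins. RNU7-1 encodes U7, which acts in the formation of the 3′ ends of histone mRNAs and is no part of the spliceosome, so 8 of the 9 members are spliceosomal in the strict sense.

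The sequences are given first, since several results turn on how alike or how short these RNAs are. All were read from GENCODE release 29 (GRCh38) and are written with T for U. Both U4 genes are encoded on the minus strand of chromosome 12, RNU4-2 at chr12:120291763-120291903 and RNU4-1 at chr12:120293097-120293237, with 1193 bases between them. Each is a single exon of 141 bases outside any other annotated gene. The capitals mark the positions at which they differ.

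RNU4-2: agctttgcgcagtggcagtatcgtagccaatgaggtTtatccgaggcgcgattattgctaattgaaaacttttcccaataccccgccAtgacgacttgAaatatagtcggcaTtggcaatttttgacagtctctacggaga
RNU4-1: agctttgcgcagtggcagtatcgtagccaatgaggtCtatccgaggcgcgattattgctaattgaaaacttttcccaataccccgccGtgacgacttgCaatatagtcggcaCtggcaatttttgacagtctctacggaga

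Counted from the 5′ end, with the base of RNU4-2 first, the 4 differences are T37C, A88G, A99C and T113C, and the identity is 97.2%. A window of 100 bases, the read length given in the labels, spans 3 or 4 of these positions wherever it lies. How fragments that match both genes were divided was not given in the sources used here, so the split between the U4 rows is uncertain, whereas their sum is less so.

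The minor-class RNAs are shown for their Sm sites, which the capitals mark. The site was searched as AATTTTTG or AATTTTTTG on the strand of the RNA, and a match to the first can hold no match to the second. In RNU6ATAC the capitals mark the run of 6 T at the 3′ end. RNU11 lies at chr1:28648600-28648733 (plus strand, 134 bases), RNU12 at chr22:42615244-42615393 (plus, 150 bases), RNU4ATAC at chr2:121530881-121531007 (plus, 127 bases, opposite an intron of CLASP1 and in an intron of the non-coding AC012447.1) and RNU6ATAC at chr9:134164439-134164564 (minus, 126 bases).

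RNU11: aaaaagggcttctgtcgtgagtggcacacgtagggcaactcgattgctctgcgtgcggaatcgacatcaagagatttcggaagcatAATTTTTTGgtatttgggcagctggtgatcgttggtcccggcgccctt
RNU12: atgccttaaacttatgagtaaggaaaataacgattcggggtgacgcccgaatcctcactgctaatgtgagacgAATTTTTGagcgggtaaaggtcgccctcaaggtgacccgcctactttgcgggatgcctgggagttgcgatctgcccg
RNU4ATAC: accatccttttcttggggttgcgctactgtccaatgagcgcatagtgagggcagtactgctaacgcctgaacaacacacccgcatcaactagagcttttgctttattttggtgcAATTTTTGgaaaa
RNU6ATAC: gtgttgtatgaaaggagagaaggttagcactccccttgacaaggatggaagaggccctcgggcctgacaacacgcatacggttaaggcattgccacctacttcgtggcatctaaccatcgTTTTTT

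Of the 7 members searched, which do not include the U5 genes, the Sm motif was found in 5, in all but RNU6ATAC and RNU7-1. It was found in 4.68% of the 1900 transcripts that GENCODE types as snRNA and in 1.82% of all 5549 transcripts of 100 to under 200 bases. Both exact forms occur among these members, so these shares describe the search and are no test. Many snRNA rows are also named for U6 (1379 rows), which carries no Sm site. Other forms of the site were not searched, so a member without a match, such as RNU7-1, may still hold one. RNU12 and RNU11 overlap, on the same strand, an exon of a non-coding gene (Z93241.1 and AL360012.1). RNU7-1, at chr12:6943816-6943878, has 63 bases and overlaps an exon of 2 of the 7 transcripts of C12orf57.

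The miR-143 precursor row MIR143, which checks the labels, had a value of 0 in control IgG and control AGO, 44781 FPKM in miR-143 IgG and 118393 FPKM in miR-143 AGO. Of 10 rows with erythroid markers of K562, 9 to 10 reached 1 FPKM per group, and of 8 markers of other cell types 0 to 2 did, the highest being EPCAM at 8.28 FPKM. In control IgG 8393 rows were above 0, against 11453 to 12937 rows in the other groups. Read numbers were not given. As a guide to relative depth, the 10th lowest product of FPKM and length in kilobases was 0.736 in control IgG, 0.0594 in control AGO, 0.0897 in miR-143 IgG and 0.0547 in miR-143 AGO. A high value goes with few fragments, so by this guide control IgG was the shallowest group, and a value of 0 there may be a gene that was missed. The guide assumes that a fragment has a similar value in each group, which was not tested. The mRNA of SF3B1, a core U2 protein gene, was listed at 0 in this group alone.

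RNU4-2 was the highest row of both mock precipitates and of control AGO. Its values were 675467 FPKM in control IgG, 47322 FPKM in control AGO, 706258 FPKM in miR-143 IgG and 31202 FPKM in miR-143 AGO. Both IgG values were thus far above both AGO values. IgG and AGO precipitates were taken from the same cell populations, so this is a difference between precipitates and not between cells. Between control and miR-143 cells, fewer cells that hold an RNA and less RNA per cell cannot be told apart in bulk precipitates. RNU4-1 took the same course at lower levels, with 463510 FPKM in control IgG, 38363 FPKM in control AGO, 470895 FPKM in miR-143 IgG and 15853 FPKM in miR-143 AGO. It ranked 2nd in the first 3 of these groups. In miR-143 AGO, MIR143 ranked 1st, RNU4-2 ranked 2nd, the ribosomal protein mRNA RPS27 ranked 3rd, RNU4-1 ranked 4th and the 7SK RNA (RN7SK) ranked 5th. RNU4-2 exceeded RNU4-1 by 1.46-fold in control IgG, 1.23-fold in control AGO, 1.5-fold in miR-143 IgG and 1.97-fold in miR-143 AGO. Of 94 rows named as U4 genes, 92 were listed at 0 in all groups.

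**Figure D1:**
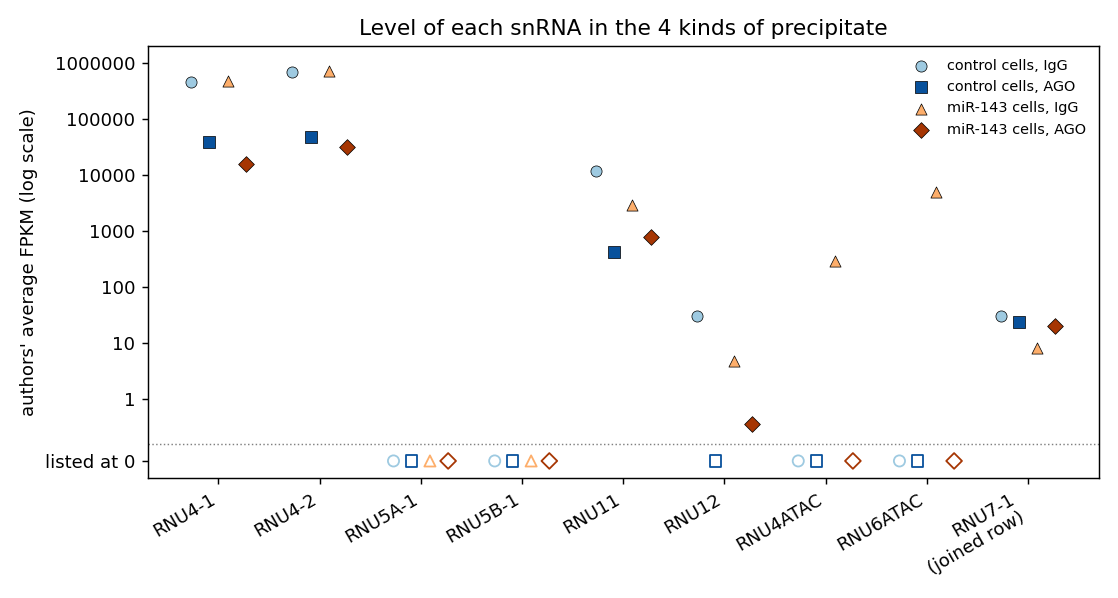
Authors' average FPKM (log axis) of each of the 9 snRNA genes, with 1 marker per group and open markers for values listed at 0. RNU4-1 and RNU4-2 are the highest members in all 4 groups, and the IgG markers of both lie more than 10-fold above the AGO markers.

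The 9 members made up 40.7% of the summed FPKM in control IgG, 23.4% in control AGO, 45.7% in miR-143 IgG and 11.6% in miR-143 AGO. RNU4-1 and RNU4-2 together held 40.2%, 23.2%, 45.3% and 11.4% in the same order, and the other 7 members held 0.419%, 0.12%, 0.314% and 0.193%. So the dominance of the mock precipitates lay in the U4 pair. RNU4-2 alone held 23.9% in control IgG, 12.8% in control AGO, 27.2% in miR-143 IgG and 7.58% in miR-143 AGO.

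A share of summed FPKM is no share of reads, since FPKM divides by length and short RNAs weigh heavily. When each value was multiplied by the longest annotated transcript length, the members held 9.52% in control IgG, 1.93% in control AGO, 11.01% in miR-143 IgG and 1.13% in miR-143 AGO. The mock precipitates were higher on both scales. Lengths were found by symbol for rows with 95.2% to 98.2% of the summed FPKM. The summed FPKM itself was 2831021 in control IgG and 2595868 in miR-143 IgG, against 368552 and 411417 in control AGO and miR-143 AGO. For this reason RNU4-2 was lower in AGO than in IgG by a factor of 14.3 in FPKM in control cells, while its share was lower by a factor of 1.86.

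**Figure D2:**
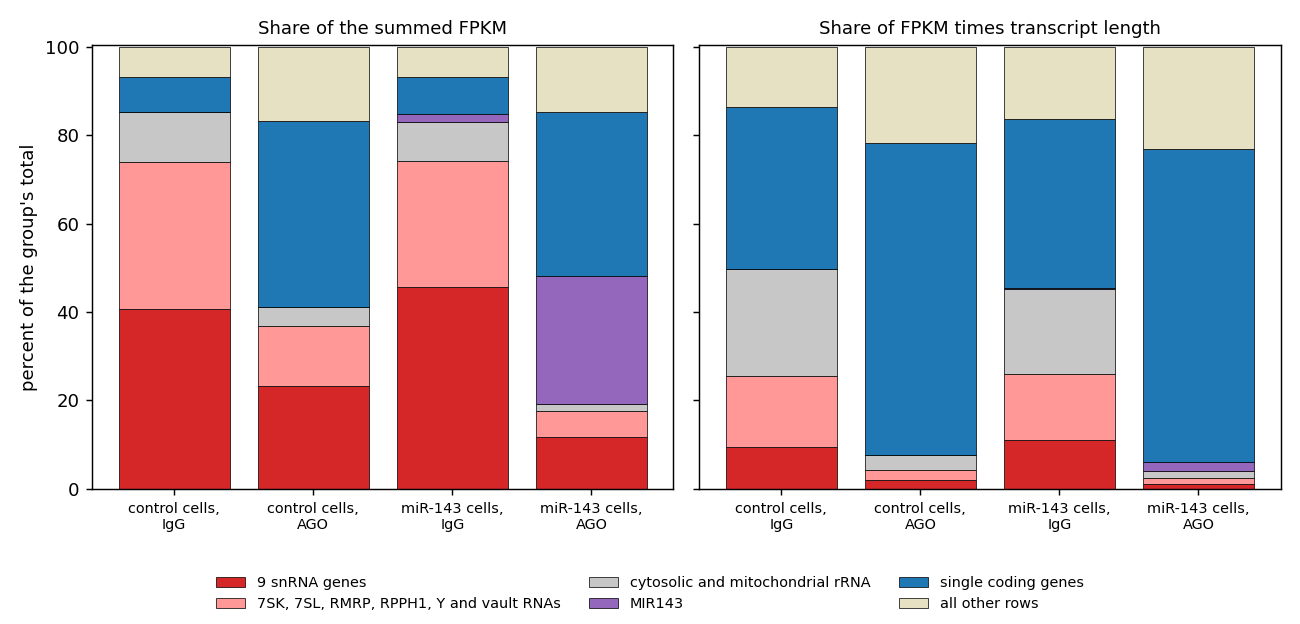
Stacked shares (percent) of the summed FPKM, left, and of FPKM times transcript length, right, in the 4 groups, by class of row. The 9 snRNA genes take 40.7% and 45.7% of the summed FPKM in the IgG groups but 9.52% and 11.01% when values are weighted by length.

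Among the minor-class RNAs, U11 alone was listed above 0 in all groups, and it was the highest of them in all but miR-143 IgG. RNU11, the counterpart of U1, was listed at 11804 FPKM in control IgG, 418 FPKM in control AGO, 2934 FPKM in miR-143 IgG and 773 FPKM in miR-143 AGO, ranking 14th, 75th, 26th and 33rd. It was lower in AGO in both cell populations, and the 2 IgG values differed by more than the 2 AGO values did. RNU12, the counterpart of U2, was listed at 30.9 FPKM in control IgG, 0 in control AGO, 4.81 FPKM in miR-143 IgG and 0.364 FPKM in miR-143 AGO. The RNU12 values lay below every other value above 0 of rows of 120 to under 200 bases, whose lowest was 162, 44.7, 74.9 and 27.8 FPKM in control IgG, control AGO, miR-143 IgG and miR-143 AGO. The length or locus that the authors' annotation gave RNU12 was not given in the sources used here, so its level is not set against those of the other members.

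The RNAs that stand in for U4 and U6 in the minor spliceosome were listed above 0 in a single group. RNU6ATAC reached 4904 FPKM in miR-143 IgG, where it ranked 17th, and RNU4ATAC reached 298 FPKM there, a ratio of 16.5. Both were listed at 0 in control IgG, control AGO and miR-143 AGO. The RNU4ATAC value is close to the lowest that RNAs of this length took in that group, so few fragments may stand behind it, and no size of fold is given against a group at 0.

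RNU5A-1 and RNU5B-1 were listed at 0 in all groups, as were RNU5D-1 and RNU5F-1. RNU5E-1 was the only one of 31 U5 rows above 0, with 10029 FPKM in control IgG, 429 FPKM in control AGO, 12356 FPKM in miR-143 IgG and 0 in miR-143 AGO. A value of 0 cannot be read as absence here. U5 serves every intron, and the principal genes of U1 (RNU1-1 to RNU1-4), U2 (RNU2-1) and U6 (RNU6-1, RNU6-2, RNU6-7, RNU6-8 and RNU6-9) were also listed at 0 in all groups.

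Short rows were rarely listed above 0. Over rows with 1 name and 1 transcript, 0 of 1861 rows under 100 bases were above 0 in any group, and 2 of 1707 rows from 100 to under 120 bases were (RNY1 and MIR143). So were 12 of 392 rows from 120 to under 150 bases and 12 of 343 rows from 150 to under 200 bases. U4 and the listed U5 copy fall in the third of these classes, RNU5A-1 and RNU5B-1 in the second and U7, at 63 bases, in the first. The row of RNU7-1 and C12orf57 was listed at 30.5 FPKM in control IgG, 23.9 FPKM in control AGO, 8.37 FPKM in miR-143 IgG and 20.4 FPKM in miR-143 AGO. These values cannot be assigned to U7.

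Outside the members, 1994 further snRNA rows were found, not counting RN7SK, which GENCODE also types as snRNA, and 13 of them were above 0 in any group. They held 1.90% of the summed FPKM in control IgG, 0.449% in control AGO, 1.55% in miR-143 IgG and 0.506% in miR-143 AGO. The highest, a row named U1, was listed at 22346 FPKM, 726 FPKM, 10125 FPKM and 868 FPKM in the same order, and a further U1 row at 16561 FPKM, 450 FPKM, 12003 FPKM and 1084 FPKM. The U1 variant RNVU1-7 was listed at 4316 FPKM, 0, 873 FPKM and 28.7 FPKM, and RNVU1-6 at 162 FPKM, 0, 4046 FPKM and 0. Of the 13 rows 10 had their highest value in a mock precipitate and 3 in an AGO precipitate. The latter were RNU1-108P at 44.7 FPKM in control AGO and the joined rows of RNU2-15P at 5.53 FPKM and RNU1-6P at 0.625 FPKM in miR-143 AGO. RNU1-85P, RNVU1-15 and RNU2-51P were above 0 in miR-143 IgG alone, and RNU1-108P and RNU1-6P in a single AGO group. Such rows can be highest only there. The same share over all rows was not counted, so these counts are a description. Of 1379 rows named for U6, the partner of U4, 1378 were at 0 in all groups, and the other shared its row with PPIL3.

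Ratios of AGO over IgG were computed as log2 of FPKM + 1 in AGO over FPKM + 1 in IgG, in rows that reached 1 FPKM in either group, and a row was counted at 2-fold and at 10-fold. A row listed at 0 in one group is counted by this pseudocount scale alone, so the counts are also given over rows above 0 in both groups. In control cells 5 members were compared. RNU4-1, RNU4-2 and RNU11 were at least 10-fold lower in AGO, RNU12 was counted with them but is listed at 0 in AGO, and the RNU7-1 row lay at −0.34. Of all 9919 rows compared, 36.2% were at least 2-fold and 4.98% at least 10-fold lower, and 34.5% and 4.38% were higher by these measures. The members' median was −3.84 and that of all rows −0.19. Over rows above 0 in both groups, 3 of 4 members and 4.51% of 7290 rows were at least 10-fold lower, with medians of −3.72 and −0.65. RNU4-1 was lower by a factor of 12.1 (log2 ratio −3.59), RNU4-2 by 14.3 (−3.84) and RNU11 by 28.2 (−4.82).

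In miR-143 cells 7 members were compared. RNU4-1 and RNU4-2 were at least 10-fold lower in AGO, and RNU11 and RNU12 at least 2-fold lower. RNU4ATAC and RNU6ATAC were counted as 10-fold lower but are listed at 0 in AGO. The row of RNU7-1 and C12orf57 was at least 2-fold higher (1.19). Over all 10643 rows, 33.5% were at least 2-fold and 3.67% at least 10-fold lower, while 26.6% and 1.60% were higher. The medians were −4.50 for the members and −0.22 for all rows. Over rows above 0 in both groups, 2 of 5 members and 2.77% of 9110 rows were at least 10-fold lower, and the medians were −2.09 and −0.26, so the members' median rests in part on the rows at 0. RNU4-1 was lower by a factor of 29.7 (−4.89), RNU4-2 by 22.6 (−4.50) and RNU11 by 3.80 (−1.92). RNU12, low in both groups, stood at −2.09. On the share of summed FPKM, RNU11 was higher in AGO by a factor of 1.66, so its direction in miR-143 cells depends on the scale.

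These ratios rest on the scale of the deposited values. When the groups were scaled to the same sum without rRNA, the members and MIR143, the median of all rows moved from −0.19 to 1.66 in control cells and from −0.22 to 1.60 in miR-143 cells. RNU4-2 then stood at −1.49 and −2.24 and RNU4-1 at −1.25 and −2.64, so both U4 rows stayed lower in AGO, while RNU11 turned to 0.33 in miR-143 cells. Scaling to the same median or upper quartile changed the direction of no member past 2-fold.

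Several other abundant RNAs of stable particles moved with the U4 rows. The list of 7SK, 7SL, RMRP, RPPH1, Y and vault RNAs, which act in transcription control, protein targeting and RNA processing, held 6 rows above 1 FPKM, and all 6 were at least 10-fold lower in AGO in both cell populations. Their medians were −4.29 and −5.01. RNY1, among these 6 rows, was listed at 9402 FPKM in miR-143 IgG and 0 in miR-143 AGO. It is counted there by the pseudocount scale alone. RN7SK, from 280876 FPKM to 23862 FPKM in control cells and from 277835 FPKM to 10609 FPKM in miR-143 cells, was lower by factors of 11.8 and 26.2, against 13.3 and 25.0 for the sum of the U4 pair. RN7SL1, the RNA of the signal recognition particle, was lower by factors of 23.1 and 34.2, RMRP by 15.9 and 28.6, RPPH1 by 16.6 and 31.7 and the mitochondrial rRNA MT-RNR2 by 18.4 and 27.2. The summed FPKM of rows with a single coding gene was lower by factors of 1.44 and 1.42, and GAPDH by 1.21 and 1.12. RNU4-2 stood at 1193 times GAPDH in control IgG and 1210 times in miR-143 IgG, but at 101.4 times in control AGO and 59.8 times in miR-143 AGO. Small nucleolar RNAs were split in control cells, with 3 of 6 rows at least 2-fold higher in AGO and 3 lower. In miR-143 cells 2 of 8 were higher and 5 lower. Of small Cajal body RNAs 3 of 3 rows were lower in control cells and 2 of 3 in miR-143 cells, with 0 higher. Over all rows 34.5% were higher and 36.2% lower in control cells, and 26.6% and 33.5% in miR-143 cells. Enrichment in the mock over the AGO precipitate was thus no trait of the snRNAs alone.

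**Figure D3:**
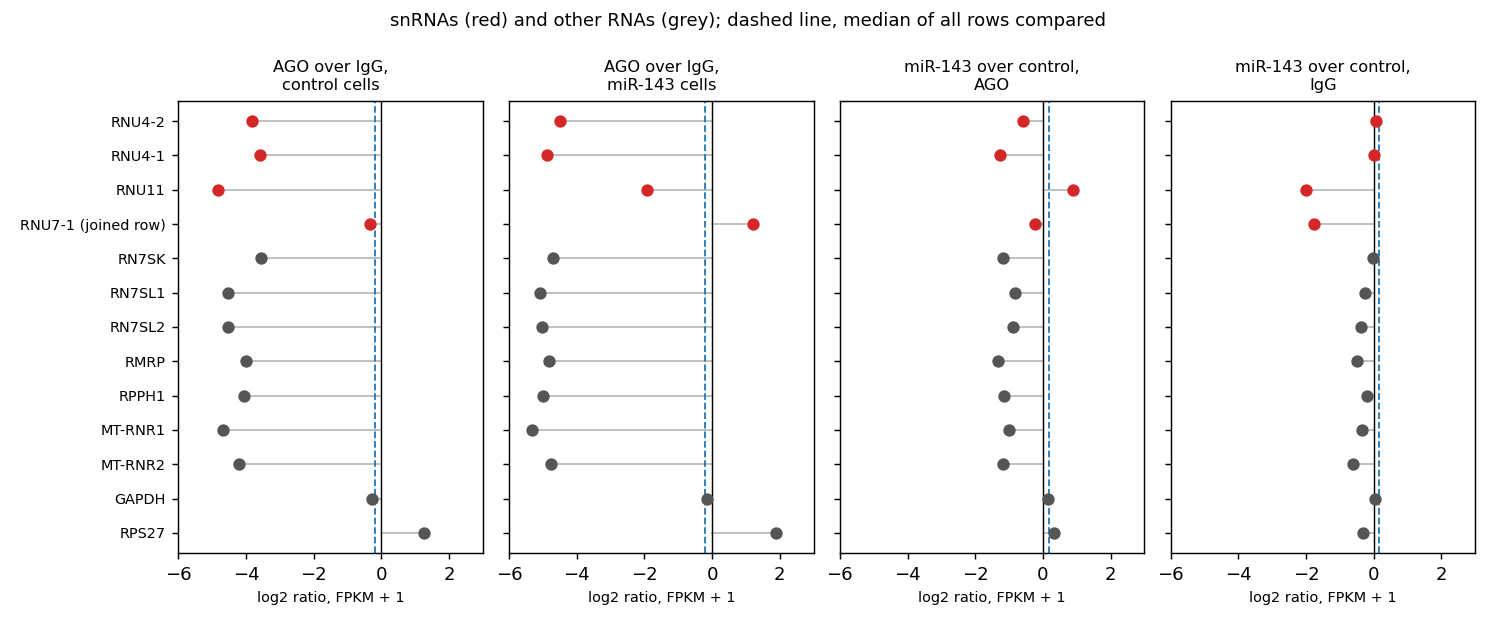
Log2 ratios (FPKM + 1) in the 4 comparisons for 4 snRNA rows (red) and 9 other rows (grey), with the median of all rows compared as a dashed line. In both panels of AGO over IgG the U4 rows lie near 7SK, 7SL, RMRP, RPPH1 and mitochondrial rRNA, away from GAPDH and RPS27. In miR-143 cells RNU4-2, at −4.50, is less low than each of these small RNP and mitochondrial RNAs, of which 7SK is nearest at −4.71.

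The ratio of AGO over IgG also varied with length among coding genes. Coding rows whose longest transcript had under 800 bases had a median of −2.01 in control cells (95 rows) and −1.60 in miR-143 cells (102 rows). The medians were −1.02 and −0.83 from 800 to under 1500 bases and −0.28 and −0.19 from 1500 to under 3000 bases. They reached 0.21 and 0.02 for 5000 bases or more. The U4 RNAs, at 141 bases, lay below the median of the shortest coding class. The mitochondrial rRNAs, which are longer than that class, had ratios like those of the U4 RNAs. The labels give Ribo-Zero Gold, a depletion of rRNA, which limits what the rRNA values say of length. The part of length in the snRNA ratios was not tested.

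**Figure D4:**
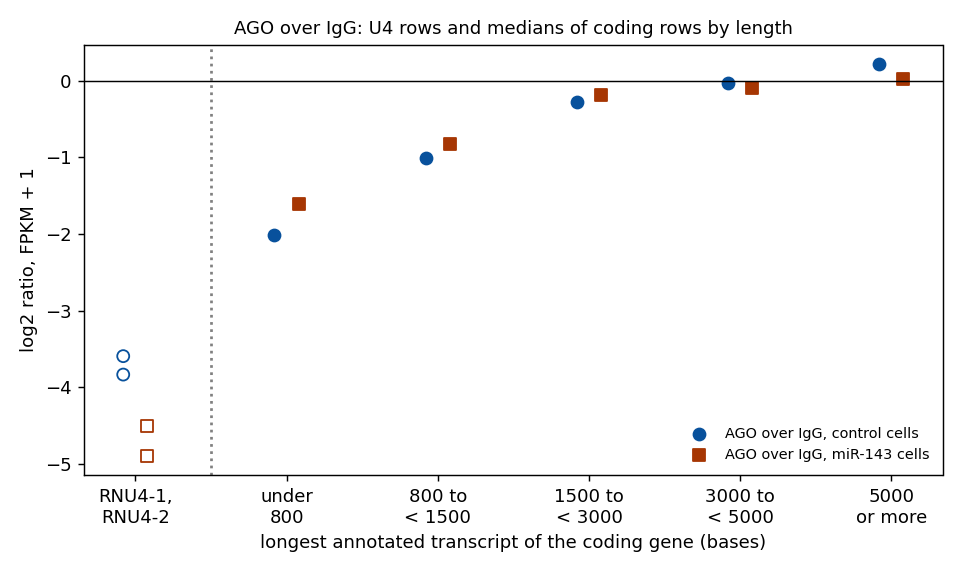
Log2 ratio (FPKM + 1) of AGO over IgG for RNU4-1 and RNU4-2 (open markers) and the median of coding rows by longest annotated transcript (filled markers), for both cell populations. The medians run from −2.01 and −1.60 below 800 bases to 0.21 and 0.02 at 5000 bases or more.

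The comparison of miR-143 with control in the AGO precipitates used no mock value. Of 4 members compared, RNU4-1 was lower in miR-143 cells, at 15853 FPKM against 38363 FPKM, by a factor of 2.42 (−1.27). RNU4-2, at 31202 FPKM against 47322 FPKM, stood at −0.60, RNU11, at 773 FPKM against 418 FPKM, at 0.88 and the RNU7-1 row at −0.22. So the U4 rows and RNU11 had opposite signs. Over all 9798 rows 14.1% were at least 2-fold lower and 17.7% at least 2-fold higher, and 0.745% and 0.286% at least 10-fold, where no member was found. The members' median was −0.41 and that of all rows 0.17. The sum of the U4 pair was lower by a factor of 1.82, beside 2.25 for RN7SK, 2.52 for RMRP, 2.20 for RPPH1 and 2.24 for MT-RNR2. MIR143 took 28.8% of the summed FPKM in miR-143 AGO. Without MIR143 in the sum, the members held 16.3% of it there, still below the 23.4% in control AGO.

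Between the mock precipitates the U4 pair was alike in level. RNU4-1 had a log2 ratio of miR-143 over control of 0.02 and RNU4-2 of 0.06, and their sum was higher by a factor of 1.03. RN7SK stood at −0.02. The minor-class RNAs differed more. RNU11 was lower in miR-143 cells, at 2934 FPKM against 11804 FPKM (−2.01), RNU12 also, at 4.81 FPKM against 30.9 FPKM (−2.46), whereas RNU4ATAC and RNU6ATAC were listed above 0 in miR-143 IgG alone. Of 7 members compared, these last 2, at 0 in control IgG, were counted as at least 10-fold higher, and RNU11, RNU12 and the RNU7-1 row as at least 2-fold lower. Over all 10172 rows 36.2% were at least 2-fold higher, 26.8% at least 2-fold lower, 5.71% at least 10-fold higher and 3.16% at least 10-fold lower. The members' median was 0.02 and that of all rows 0.17. Over rows above 0 in both groups, 3 of 5 members were at least 2-fold lower, as were 28.5% of 7244 rows, and the medians were −1.75 and −0.21. By the guide to depth, control IgG was the shallower of the mock precipitates, and the part of depth in these differences was not tested.

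The mRNAs of the proteins that bind these snRNAs were examined by lists. The list of Sm and LSm ring genes holds those of the rings that sit on the Sm site and on the U run, and also LSM1, of a different LSm ring. At the 2-fold threshold, 10 of 13 ring rows were lower in AGO and 2 were higher in control cells (median −1.31), and 11 of 14 were lower and 1 was higher in miR-143 cells (median −1.90). Over all rows, for these and the following lists, 36.2% were at least 2-fold lower and 34.5% higher in control cells, and 33.5% lower and 26.6% higher in miR-143 cells. Rows listed at 0 in one group are included. SNRPD2, a core Sm protein gene, was listed at 341 FPKM in control IgG, 42.0 FPKM in control AGO, 527 FPKM in miR-143 IgG and 69.6 FPKM in miR-143 AGO. SNRPG was at 92.8 FPKM in IgG and 5.55 FPKM in AGO of miR-143 cells (−3.84), and LSM5 at 55.4 FPKM and 0.389 FPKM in control cells (−5.34). Of these genes, SNRPD2 has a longest transcript of 901 bases and SNRPG of 1093 bases, in the length class whose medians were −1.02 and −0.83. LSM5, with 2258 bases, does not fall in it. SNRPF was listed above 0 in miR-143 IgG alone, at 10.2 FPKM. The rows counted as higher included SNRPE in control cells, at 0 in IgG and 2.55 FPKM in AGO, but in miR-143 cells it was lower in AGO, at 18.8 FPKM and 1.49 FPKM. LSM6 was at 0 in miR-143 IgG and 1.83 FPKM in miR-143 AGO. Between the AGO precipitates 3 of 12 ring rows were at least 2-fold higher in miR-143 cells and 0 lower (median 0.43), beside 17.7% and 14.1% of all rows, led by SNRPD1 at 4.84 FPKM against 0.343 FPKM.

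Genes of U1 and U2 proteins were lower in AGO in 7 of 14 rows and higher in 3 in control cells (median −0.90), and lower in 9 of 15 and higher in 1 in miR-143 cells (median −1.70). Past 10-fold in control cells were SF3B6 (110 FPKM in IgG and 0.997 FPKM in AGO), SNRPC of the U1 particle (67.3 FPKM and 3.86 FPKM) and SF3A1 (45.8 FPKM and 3.55 FPKM). Among genes of the U4/U6, U5 and tri-snRNP proteins, the partners of the U4 RNAs, rows lower and higher in AGO were more even in number. Of 17 rows 4 were lower and 4 higher in control cells (median 0.50), and 4 were lower and 2 higher in miR-143 cells (median −0.39). These shares are below those of all rows. SART1, which joins the tri-snRNP, was listed at 79.7 FPKM in miR-143 IgG and 4.73 FPKM in miR-143 AGO, but at 0.368 FPKM and 5.44 FPKM in control cells. PPIH, a cyclophilin of the U4/U6 particle, was at 122 FPKM and 11.2 FPKM in miR-143 cells and at 25.3 FPKM and 16.3 FPKM in control cells. EFTUD2, the GTPase of U5, was at 6.20 FPKM in miR-143 IgG and 56.5 FPKM in miR-143 AGO but at 71.8 FPKM and 28.97 FPKM in control cells. TXNL4A, of U5, was at 0 in control IgG and 18.3 FPKM in control AGO. Between the AGO precipitates 2 of the 17 rows were at least 2-fold lower in miR-143 cells and 0 higher (median −0.17). Of all rows 14.1% were lower and 17.7% higher by this measure. DDX23 was the lowest of the 17 rows, at 4.8 FPKM against 13.0 FPKM.

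Genes of the minor U11/U12 proteins were lower in AGO in 2 of 6 rows in control cells (median −0.86) and in 6 of 9 in miR-143 cells (median −1.44), with 1 higher in each. The share of lower rows in control cells is near that of all rows, as are the shares of lower rows in the U7 list. SNRNP25 was listed at 113 FPKM in control IgG and 4.76 FPKM in control AGO, and SNRNP35, at 21.5 FPKM in miR-143 IgG and 0.717 FPKM in miR-143 AGO, and ZCRB1, at 17.8 FPKM and 0, passed 10-fold in miR-143 cells. For U7 and histone 3′ end proteins 3 of 7 rows were lower and 2 higher in control cells (median 0.29). In miR-143 cells 3 of 8 were lower and 0 higher (median −0.48). CSTF2 was the lowest in control cells, at 48.5 FPKM in IgG and 4.50 FPKM in AGO. Among genes of snRNP assembly and export 7 of 11 rows were lower and 3 higher in control cells (median −1.54), and 5 of 14 lower and 2 higher in miR-143 cells (median −0.41). The share of lower rows in miR-143 cells is near that of all rows. PRMT5, the methyltransferase that modifies Sm proteins, was listed at 178 FPKM in control IgG and 14.1 FPKM in control AGO but at 21.6 FPKM and 38.8 FPKM in miR-143 cells, and GEMIN6 of the SMN complex at 18.2 FPKM in control IgG and 0 in control AGO. Among genes of snRNA transcription and 3′ end formation 4 of 14 rows were lower and 5 higher in control cells (median −0.60), and 4 of 18 lower and 4 higher in miR-143 cells (median −0.19). Here the shares of lower rows are below those of all rows, and the shares of higher rows are near them. SNAPC2, of the complex that starts snRNA transcription, was at 10.9 FPKM in miR-143 IgG and 51.1 FPKM in miR-143 AGO, and USB1, the enzyme that trims the 3′ end of U6, at 0.739 FPKM in control IgG and 10.2 FPKM in control AGO.

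Between the AGO precipitates the remaining lists had 3 of 15 rows at least 2-fold higher and 1 lower for U1 and U2 proteins, with PHF5A at 10.6 FPKM in miR-143 AGO against 54.5 FPKM in control AGO. For U11/U12 proteins 0 of 6 were higher and 1 was lower, for U7 proteins 1 of 8 was higher and 0 lower, for assembly and export 1 of 10 was higher and 2 were lower, and for transcription and end formation 6 of 16 were higher and 1 was lower. Over all 9798 rows 17.7% were at least 2-fold higher and 14.1% at least 2-fold lower, and 0.286% and 0.745% at least 10-fold. No protein gene of these lists passed 10-fold in this comparison, and the medians ran from −0.27 for U11/U12 proteins to 0.57 for U1 and U2 proteins. Between the mock precipitates SNRPE, SNRPF, SF3B1, SART1, TXNL4A, SNRNP35, CPSF3, ZNF473 and SSB passed 10-fold upwards and EFTUD2 downwards in miR-143 cells. All of the former except SART1 were at 0 in control IgG, and SART1 was at 0.368 FPKM. Over all 10172 rows compared between the mock precipitates, 5.71% were at least 10-fold higher and 3.16% at least 10-fold lower.

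**Figure D5:**
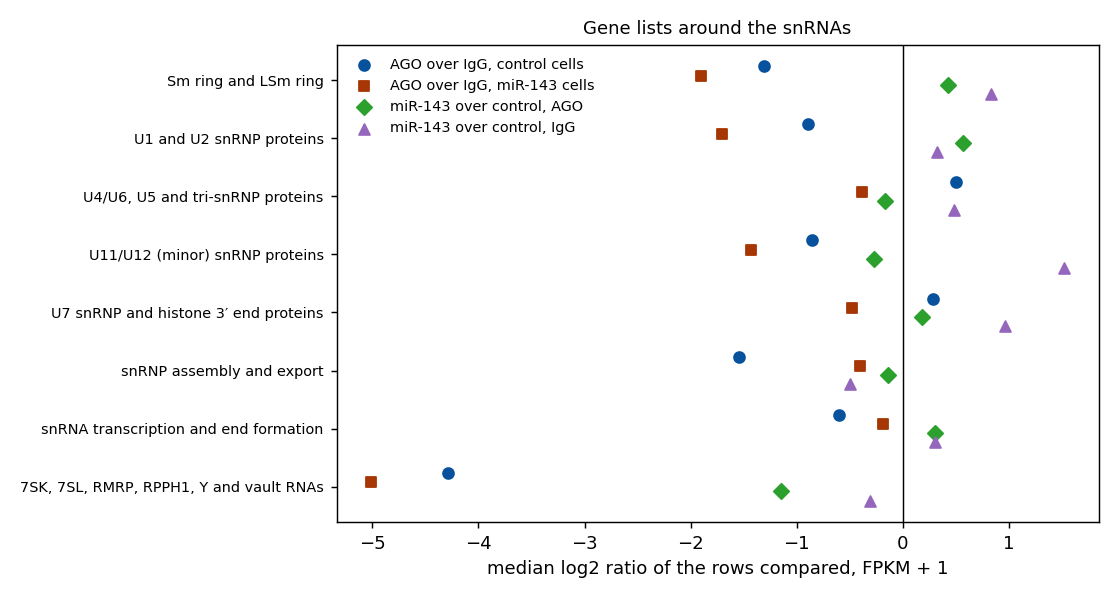
Median log2 ratio (FPKM + 1) of each gene list in the 4 comparisons, 1 marker per comparison. The list with 7SK, 7SL and RMRP lies at −4.29 and −5.01 for AGO over IgG, and the Sm and LSm ring list at −1.31 and −1.90, while the tri-snRNP list lies at 0.50 and −0.39.

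The rows whose profile over the 4 groups was most like that of the members were searched among 5085 rows, by the distance between log2 values centred on their own mean. The median of the 7 members above 0 was taken in each group apart, so it need not be the profile of any member. It was high in both IgG groups, at 2.05 and 2.12, and low in both AGO groups, at −2.0 and −2.06. Values listed at 0 enter it, namely RNU12 in control AGO, and RNU4ATAC and RNU6ATAC in all groups but miR-143 IgG. The rows below are thus near this median and not near each member. Nearest was SNHG5, a host gene of small nucleolar RNAs, with 640 FPKM in control IgG, 35.0 FPKM in control AGO, 697 FPKM in miR-143 IgG and 37.0 FPKM in miR-143 AGO (distance 0.14). TMA7 (distance 0.24), the 7SK copy RN7SKP255 (0.32), the joined row of RBM5 and RBM6 (0.38) and the histone gene HIST1H1D (0.44) followed. The likeness is taken over 4 averages and says nothing of shared function.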

How the data were processed

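RNA from AGO2 and IgG precipitates of K562 cells was sequenced in 12 samples, 4 groups of 3. The labels give Ribo-Zero Gold depletion, random priming and paired reads of 100 bases, the methods a TruSeq RNA kit. The submitters' notes name TopHat, Cufflinks and hg38. Versions and annotation were not given in the sources used here. The authors deposited 1 FPKM value per row and group, an average, so each group counts as 1 value and the planned comparison of pooled values was used. Groups came from sample titles. Cufflinks divides by a length that is uncertain for short RNAs, and it joined overlapping genes in 2140 rows.

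Ratios were log2 of FPKM + 1 over rows with at least 1 FPKM in either group, which understates changes of low genes; calls were at 2-fold and 10-fold. Sequences and lengths came from GENCODE 29 by symbol (Python 3.11.15, pandas 2.3.3, Biopython 1.88). The sequences of the U5 genes are not reported here. Scripts were tested on simulated data. The members and gene lists were chosen with earlier results of these data known. Named are the members, the other snRNA rows with the highest mean, the 5 top rows per group, the 5 nearest profiles, and list genes past 10-fold or at a list's ends, as far as they add to the text. RNU4-2 against GAPDH, SNRPD2, the rows listed at 0 and the length classes were picked after values were seen. Alternatives were a pseudocount of 0.1, no filter, 3 scalings, other denominators, single-name rows and summed names.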

Additional observations from a re-analysis of the deposited data

Results flagged for a closer look

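RNU11 moved in opposite directions between miR-143 and control cells in the 2 kinds of precipitate. Its log2 ratio of miR-143 over control was −2.01 between the IgG precipitates (2934 FPKM against 11804 FPKM) and 0.88 between the AGO precipitates (773 FPKM against 418 FPKM). The members listed above 0 in all 4 groups were RNU4-1, RNU4-2, RNU11 and the joined row of RNU7-1. Of these, RNU11 was the only one with a change of at least 1.5-fold in opposite directions. The share of all rows with such opposite changes was not counted, so the pattern is not shown to be particular to RNU11. With 1 averaged value per group, the difference was not tested.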

How the results depend on the processing

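No paired analysis was possible because each table holds 1 average per group, and leaving out replicates, count tools and a replicate block were not run for the same reason. Of 72 values recomputed for the main results, 56 stayed within 1.5-fold. With the groups scaled to the same median, the median log2 ratio of the members for AGO over IgG in control cells was −3.19. With the same sum without rRNA, members and MIR143 it was −1.49 for control and −2.24 for miR-143 cells, and the ratio of RNU11 in miR-143 cells reversed to 0.33. The members past 2-fold between the AGO precipitates numbered 1 as deposited, 2 under upper-quartile scaling and 3 under the same sum. RNU11 was added under both scalings, at 1.05. RNU12 was added under the same sum alone, as a factor of 3.15 took its 0.364 FPKM in miR-143 AGO past 1 FPKM. Its control AGO value is 0, so this call rests on the pseudocount. The share of all rows past 2-fold under these scalings was not counted. Weighted by length, the members' share was 9.52% in control IgG, 1.93% in control AGO, 11.01% in miR-143 IgG and 1.13% in miR-143 AGO. On the summed FPKM without weighting, the share of the members other than RNU4-2 was 16.8%, 10.5%, 18.5% and 4.05% in the same order. In an alternative chosen after seeing the data, over rows above 0 in both groups, the members' median was −2.09 for AGO over IgG in miR-143 cells and −1.75 between the IgG precipitates, where 3 members in place of 5 passed 2-fold. The RNU7-1 row, not past 2-fold in control cells, stood there at 0.28 with equal medians and at 1.93 with equal sums. A smaller pseudocount moved only ratios of RNU12, RNU4ATAC and RNU6ATAC, which have a value at or near 0. Beyond those scalings the cause was not tested. Depth, unknown in fragments, limits every value listed at 0.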
